A study of Mus musculus with 8 samples.

Results

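Spib, Mzb1, Hemgn and Rora, grouped here as genes of other blood lineages, were measured in 2 mouse T cell leukemia lines. Measured with them were Cebpb and 5 genes grouped here with the B lineage, St6gal1, Cd79a, Cd79b, Blnk and Ebf1. The genes were taken as every probe set whose platform annotation gives 1 of these 10 symbols. This found 24 of the 45037 probe sets on the array and 10 of 18193 named genes. Spib, Mzb1, Hemgn and Rora were selected on their difference between MigR1-Cre and MigR1 arrays of the Lef1F/F line, and Cebpb because it passed the same comparison once the arrays were paired. What the 5 B lineage genes were selected on is not recorded. The question was whether single genes of other lineages, or a B cell program, followed expression of Cre.

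The 8 arrays, 2 for each group, came from lines grown out of thymic leukemias of FVB/NJ mice. The Lef1F/F line lacks E2a, the gene of the E protein transcription factors E12 and E47, and carries loxP sites around part of Lef1. The E2a-/- line also lacks E2a and has no loxP sites in Lef1. Each line was infected with MigR1-Cre, a retrovirus that encodes green fluorescent protein (GFP) and Cre recombinase, or with MigR1, which encodes GFP alone, and the GFP+ cells were collected after 72 h. Each genotype is represented by 1 line, and the effects of genotype and of line cannot be told apart. The labels do not say that the arrays of a group came from separate cultures, and p-values then measure only the spread between these arrays, which may be technical. A field for the vector contradicts the titles of 4 arrays, those of E2a-/- MigR1-Cre and Lef1F/F MigR1. The titles, which match the source names, were used. At the brighter of the Lef1 probe sets, intensity was 1903 and 1678 in Lef1F/F MigR1-Cre arrays, against 6918 and 6126 in Lef1F/F MigR1 arrays, as those titles say. In the E2a-/- line it was 3008 and 3416 in MigR1-Cre arrays, against 3288 and 3337 in MigR1 arrays. Without loxP sites there, Lef1 cannot check the titles of the E2a-/- arrays, and comparisons of vectors in that line rest on the titles. Of 18 T lineage genes, 17 lay over the median intensity of the array on all 8 arrays, which fits the labelled cell type.

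Hemopoietic progenitors settle into a lineage by switching on the transcription factors of that lineage and shutting off those of the others. In B cells, E2A proteins, EBF1 and PAX5 act in sequence, and CD79A and CD79B are the signaling chains of the B cell receptor, with BLNK as an adaptor behind them. In T cell progenitors, Notch signaling, TCF1 and LEF1 take part in commitment, and genes of the B, myeloid and erythroid lineages are mostly silent.

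The 250 bases before the transcription start (RefSeq, GRCm38.p6) are shown for Spib, whose signal was higher with Cre in the Lef1F/F line, for Hemgn, whose signal was lower, and for Cd79a, a B lineage gene with dim signal in every group. Capitals mark letters that match an E box (CAGGTG), the EBF core (CCCNNGGG or CTCNNGGG) or a GATA motif (AGATAA or TGATAA) on either strand.
Spib, chr7:44532072-44532321, minus strand: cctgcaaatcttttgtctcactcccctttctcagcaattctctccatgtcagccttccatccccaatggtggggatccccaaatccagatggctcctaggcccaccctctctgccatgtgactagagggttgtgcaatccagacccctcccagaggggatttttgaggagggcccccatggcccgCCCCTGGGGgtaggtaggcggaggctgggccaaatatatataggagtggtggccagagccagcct
Hemgn, chr4:46404184-46404433, minus strand: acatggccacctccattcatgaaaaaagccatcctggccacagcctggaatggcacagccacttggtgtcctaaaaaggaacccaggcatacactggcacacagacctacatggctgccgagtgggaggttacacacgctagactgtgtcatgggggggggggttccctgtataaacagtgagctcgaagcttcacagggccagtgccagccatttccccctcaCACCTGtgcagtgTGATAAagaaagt
Cd79a, chr7:24897247-24897496, plus strand: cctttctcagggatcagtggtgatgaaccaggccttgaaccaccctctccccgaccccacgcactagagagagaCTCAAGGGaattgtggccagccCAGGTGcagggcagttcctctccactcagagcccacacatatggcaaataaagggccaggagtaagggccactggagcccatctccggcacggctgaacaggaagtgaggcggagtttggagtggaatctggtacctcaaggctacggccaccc
The search covered 11 promoters of 8 of the 10 genes, and Mzb1 and Cd79b were not used here. The TCF/LEF motif CTTTGNN, with AA, AT, TA or TT as its final letters, was in 0 of 11, against 14.8% of 32851 promoters. An E box was in 3 of 11, those of Hemgn, Cd79a and Blnk, against 17.2% of all promoters. The EBF core was in 3 of 11, those of Spib, Cebpb and Cd79a, against 29.3%. In Spib 2 matches overlap, starting 65 and 64 bases before the start. A GATA motif was in 2 of 11, at Hemgn 13 bases before the start and at 1 promoter of St6gal1, against 16.6%. A match is only a run of letters in this window.

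Spib and Mzb1, both genes of B cells, had higher signal in the MigR1-Cre arrays of the Lef1F/F line, and Hemgn, Rora and Cebpb had lower signal. With MigR1-Cre, Spib and Mzb1 stood 1.16-fold and 1.11-fold over their E2a-/- levels, where with MigR1 they stood 1.67-fold and 1.31-fold under them. Values are RMA intensities, differences are MigR1-Cre minus MigR1 on the log2 scale, and each ± is the moderated standard error over 2 arrays a group unless marked SD. Because this comparison selected the genes, the values are descriptions, and adjusted p-values of this comparison are given for them only to show where the threshold of selection lay.

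**Figure D1:**
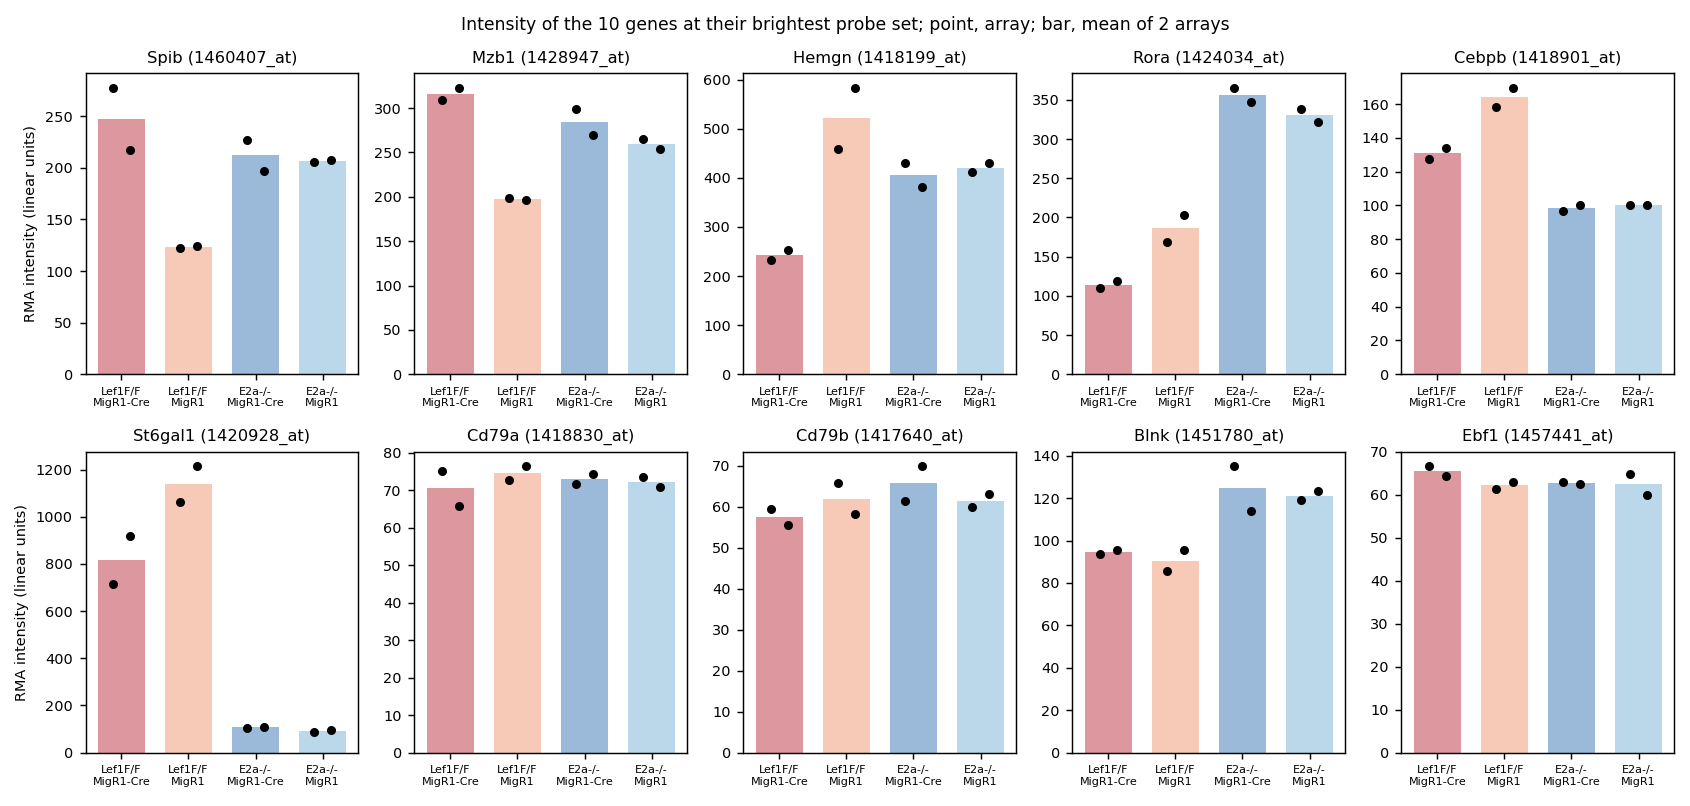
RMA intensity (linear units, axis from 0) of each of the 10 genes at its brightest probe set, with a point for each array and a bar for the mean of 2 arrays in each group. Spib and Mzb1 had their lowest signal in Lef1F/F MigR1 arrays, Hemgn and Rora their lowest in Lef1F/F MigR1-Cre arrays, St6gal1 lay between 714 and 1216 in the Lef1F/F line and between 87.5 and 110 in the E2a-/- line, and Cd79a, Cd79b and Ebf1 lay between 55.5 and 76.5 in all 8 arrays.

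Spib encodes SPI-B, an ETS family transcription factor of B cells and plasmacytoid dendritic cells. At 1460407_at its intensity was 278 and 217 in Lef1F/F MigR1-Cre arrays, against 123 and 124 in Lef1F/F MigR1 arrays, a difference of 0.99 ± 0.12 or 1.99-fold. In the E2a-/- line it was 227 and 197 in MigR1-Cre arrays, against 205 and 207 in MigR1 arrays. The Lef1F/F MigR1 arrays were thus the low ones, and the lower of the Lef1F/F MigR1-Cre arrays lay within the range of the E2a-/- MigR1-Cre arrays. In RNA from a whole sorted culture, more cells that express a gene and more RNA per cell cannot be told apart.

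Mzb1 encodes a protein of the endoplasmic reticulum that aids antibody assembly in marginal zone B cells and plasma cells. At 1428947_at its intensity was 310 and 323 in Lef1F/F MigR1-Cre arrays, against 199 and 196 in Lef1F/F MigR1 arrays, a difference of 0.68 ± 0.07 or 1.6-fold. In E2a-/- arrays Mzb1 read 299 and 270 with MigR1-Cre, against 265 and 254 with MigR1. The Lef1F/F MigR1 arrays were again the lowest of the 8, and in the E2a-/- line the MigR1-Cre arrays lay just over the MigR1 arrays.

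Hemgn encodes hemogen, a nuclear protein of blood progenitors and erythroid cells. At 1418199_at its intensity was 233 and 252 in Lef1F/F MigR1-Cre arrays, against 459 and 584 in Lef1F/F MigR1 arrays, a difference of -1.10 ± 0.12 or 2.14-fold lower. Hemgn read 430 and 381 in E2a-/- MigR1-Cre arrays, against 411 and 431 in E2a-/- MigR1 arrays. Here the Lef1F/F MigR1-Cre arrays stood apart below the other 6.

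Rora encodes the nuclear receptor RORα, which innate lymphoid cells of the ILC2 type need. At its brightest probe set, 1424034_at, intensity was 110 and 119 in Lef1F/F MigR1-Cre arrays, against 169 and 203 in Lef1F/F MigR1 arrays, a difference of -0.70 ± 0.09 or 1.62-fold lower. Rora read 366 and 347 in E2a-/- MigR1-Cre arrays, against 339 and 322 in E2a-/- MigR1 arrays. Rora was thus lower in the Lef1F/F line with either vector, and lowest with Cre.

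Rora is read by 9 probe sets, which did not move alike. In 5 of the 9 both Lef1F/F MigR1-Cre arrays lay under both Lef1F/F MigR1 arrays, with differences between -0.70 and -0.29, where 13.7% of all probe sets were lower without overlap. The other 4 had differences between -0.01 and 0.05 and mean intensities of 55 to 88.7 units, against 117 to 247 units for the 5. Of these 4, 1 was higher without overlap, 1458145_at at 0.05 ± 0.06, where 15.4% of all probe sets were. The 9 probe sets read the same gene and are not independent of each other. After the brightest probe set, the largest difference was at 1436325_at, -0.51 ± 0.10, with means of 79.1 ± 0.73 in Lef1F/F MigR1-Cre arrays and 114 ± 18.2 in Lef1F/F MigR1 arrays (SD, n = 2 each).

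Cebpb encodes C/EBPβ, a leucine zipper factor of myeloid cells. Its brighter probe set, 1418901_at, read 127 and 134 in Lef1F/F MigR1-Cre arrays, against 158 and 170 in Lef1F/F MigR1 arrays, a difference of -0.33 ± 0.06 or 1.25-fold lower. In the E2a-/- line it read 96.8 and 100.3 in MigR1-Cre arrays, against 100.5 and 100.2 in MigR1 arrays. The 2 vectors overlapped in that line and did not in the Lef1F/F line. The second Cebpb probe set was under the array median on all 8 arrays, between 57.1 and 72.9 units, and differed by -0.06 ± 0.08 in the Lef1F/F line.

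Of the 24 probe sets, 2 passed an adjusted p of 0.05 as higher, those of Spib and Mzb1, where 0.0400% of all probe sets did, and 2 as lower, those of Hemgn and Rora, where 0.127% did. As this comparison selected them, nothing is read from these counts. Just inside the threshold was Rora 1424034_at, with adjusted p = 0.0455 by limma. The next lowest were Cebpb 1418901_at at 0.212 and Rora 1436325_at at 0.235, both well outside it.

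None of the 5 B lineage genes passed the threshold in this comparison, except St6gal1 once the Lef1F/F arrays were paired (adjusted p = 0.00832). St6gal1, the sialyltransferase that makes ligands for the B cell receptor inhibitor CD22, had lower signal with Cre in the Lef1F/F line, and the others were near their MigR1 levels. At its brighter probe set, 1420928_at, St6gal1 read 714 and 918 in Lef1F/F MigR1-Cre arrays, against 1062 and 1216 in Lef1F/F MigR1 arrays, a difference of -0.49 ± 0.12 or 1.4-fold lower. In the E2a-/- line it read 103 and 110 in MigR1-Cre arrays, against 87.5 and 96.8 in MigR1 arrays. The second St6gal1 probe set, between 79.6 and 122 units, differed by -0.01 ± 0.13 in the Lef1F/F line.

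Blnk read 93.8 and 95.4 in Lef1F/F MigR1-Cre arrays, against 85.5 and 95.6 in Lef1F/F MigR1 arrays, overlapping ranges that differed by 0.07 ± 0.09. Blnk read 135 and 114 in E2a-/- MigR1-Cre arrays, against 119 and 123 in E2a-/- MigR1 arrays. The lines differed and the vectors did not separate in either.

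Cd79a, Cd79b and Ebf1, with 7 probe sets in all, lay under the array median on all 8 arrays, between 39.5 and 76.5 units. Cd79a lay between 65.8 and 76.5 units and differed by -0.08 ± 0.08 with Cre in the Lef1F/F line. Cd79b lay between 55.5 and 69.9 units and differed by -0.11 ± 0.09. The 5 Ebf1 probe sets differed by -0.08 to 0.08. The array medians were 88.9 to 91.0 units, so signal of this size may be background and a small change there could not be seen.

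**Figure D2:**
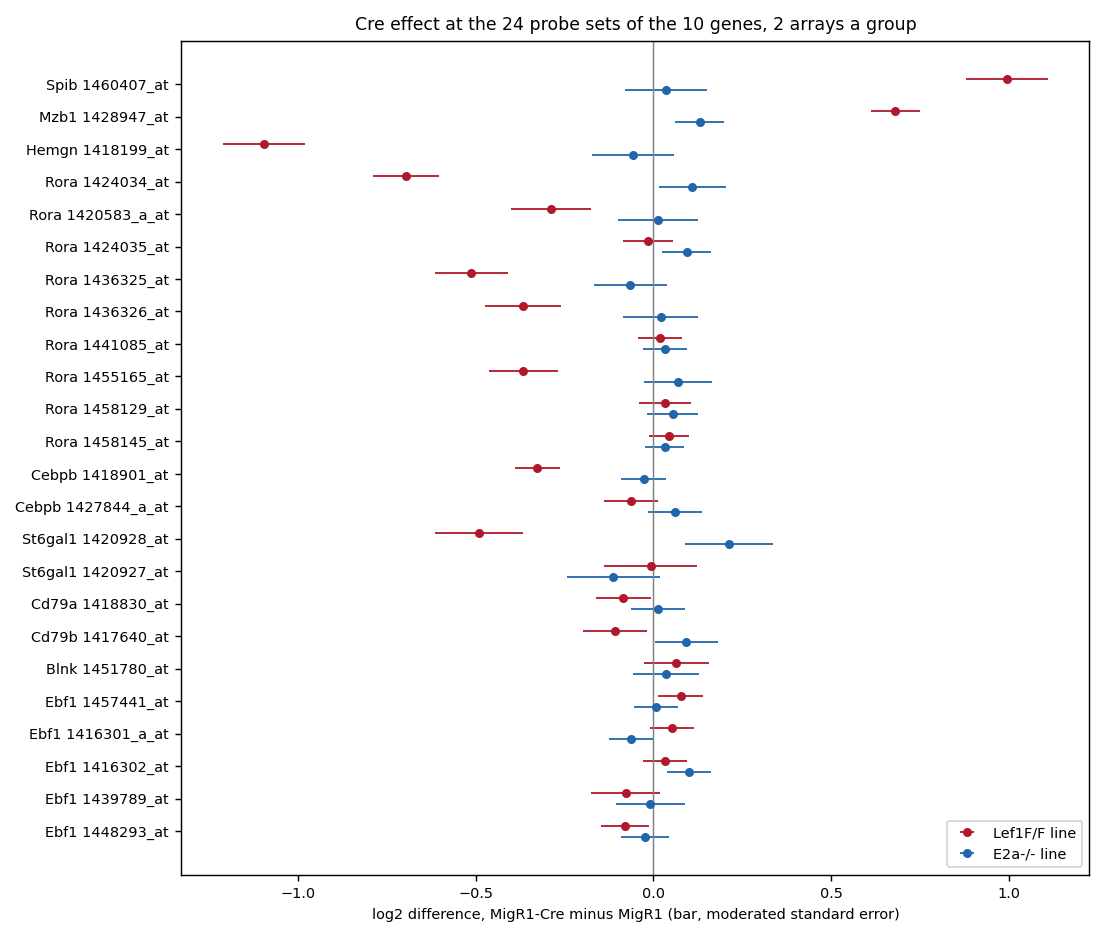
Difference between MigR1-Cre and MigR1 arrays (log2, bars are moderated standard errors, 2 arrays a group) at the 24 probe sets, in the Lef1F/F line and in the E2a-/- line. Differences in the Lef1F/F arrays run between -1.10 at Hemgn and 0.99 at Spib, and in the E2a-/- arrays between -0.11 and 0.21, both at St6gal1.

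The E2a-/- arrays did not enter the difference that selected Spib, Mzb1, Hemgn, Rora and Cebpb, and the same comparison there was tested. They did enter the estimate of spread, which all 8 arrays share, so this test is not independent of the selection. None of the 24 probe sets passed, at an adjusted p of 1 for each by limma, and 0% of all 45037 probe sets did. At an unadjusted p under 0.05 there were 0 of the 24 and 836 of all probe sets. The largest difference was that of St6gal1, 0.21 ± 0.12 with a 95% interval of -0.07 to 0.50. For Spib the difference was 0.04 ± 0.12, with an interval of -0.23 to 0.30. For Mzb1 it was 0.13 ± 0.07 (-0.03 to 0.29) and for Hemgn -0.06 ± 0.12 (-0.32 to 0.21). For Rora it was 0.11 ± 0.09 (-0.11 to 0.33) and for Cebpb -0.03 ± 0.06 (-0.17 to 0.12). The intervals leave room for changes within their limits and do not show that Cre was without effect. For Spib, Mzb1, Hemgn, Rora and Cebpb they did not reach the differences of the Lef1F/F line. As those differences had selected these genes, and the intervals use a spread shared with the Lef1F/F arrays, nothing is read from this. Without overlap between arrays, 5 probe sets were higher and 1 lower of 24, against 16.2% and 15.2% of all probe sets.

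The Cre effect in the Lef1F/F line minus that in the E2a-/- line was 0.96 ± 0.16 for Spib, 0.55 ± 0.10 for Mzb1, -1.04 ± 0.16 for Hemgn, -0.81 ± 0.13 for Rora and -0.30 ± 0.09 for Cebpb. It was -0.70 ± 0.18 for St6gal1 and 0.03 ± 0.13 for Blnk. As the Lef1F/F effect selected the first 5 genes, these differences are given with no test.

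The lines also differed without Cre, most of all at St6gal1. In MigR1 arrays the measured St6gal1 difference was 3.63 ± 0.12 on the log2 scale, higher in the Lef1F/F line, with adjusted p = 1.14e-06 by limma, and in MigR1-Cre arrays it was 2.92 ± 0.12. Since the E2a-/- arrays read near the array median, which may be background, these sizes may be lower bounds. Its second probe set differed by 0.23 ± 0.13 in MigR1 arrays (adjusted p = 0.384), so the probe sets of the gene disagree in size, and their mean differed by 1.93 (adjusted p = 1.7e-05). What selected St6gal1 and the other 4 B lineage genes is not recorded, and these tests may not be independent of it. Blnk was lower in the Lef1F/F line, by -0.42 ± 0.09 (adjusted p = 0.0234). That call was lost without Lef1F/F MigR1 array 1 (adjusted p = 0.0888) or without E2a-/- MigR1 array 1 (0.115) or 2 (0.159). Cd79a differed by 0.05 ± 0.08 (adjusted p = 0.817), Cd79b by 0.01 ± 0.09 (0.973) and the 5 Ebf1 probe sets by -0.01 to 0.08 (0.717 to 0.982).

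For the 5 genes chosen with the help of the Lef1F/F MigR1 arrays the difference between lines is a description. In MigR1-Cre arrays the Lef1F/F line minus the E2a-/- line gave 0.22 ± 0.12 for Spib and 0.16 ± 0.07 for Mzb1, against -0.74 ± 0.12 and -0.39 ± 0.07 in MigR1 arrays. For Hemgn it gave -0.74 ± 0.12 in MigR1-Cre arrays, against 0.30 ± 0.12 in MigR1 arrays. Rora gave -1.64 ± 0.09 in MigR1-Cre arrays, against -0.83 ± 0.09 in MigR1 arrays, and Cebpb gave 0.41 ± 0.06, against 0.71 ± 0.06. The sign thus differed between vectors for Spib, Mzb1 and Hemgn, and not for Rora and Cebpb. Each of these differences shares its Lef1F/F arrays with the Cre comparison in that line.

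**Figure D3:**
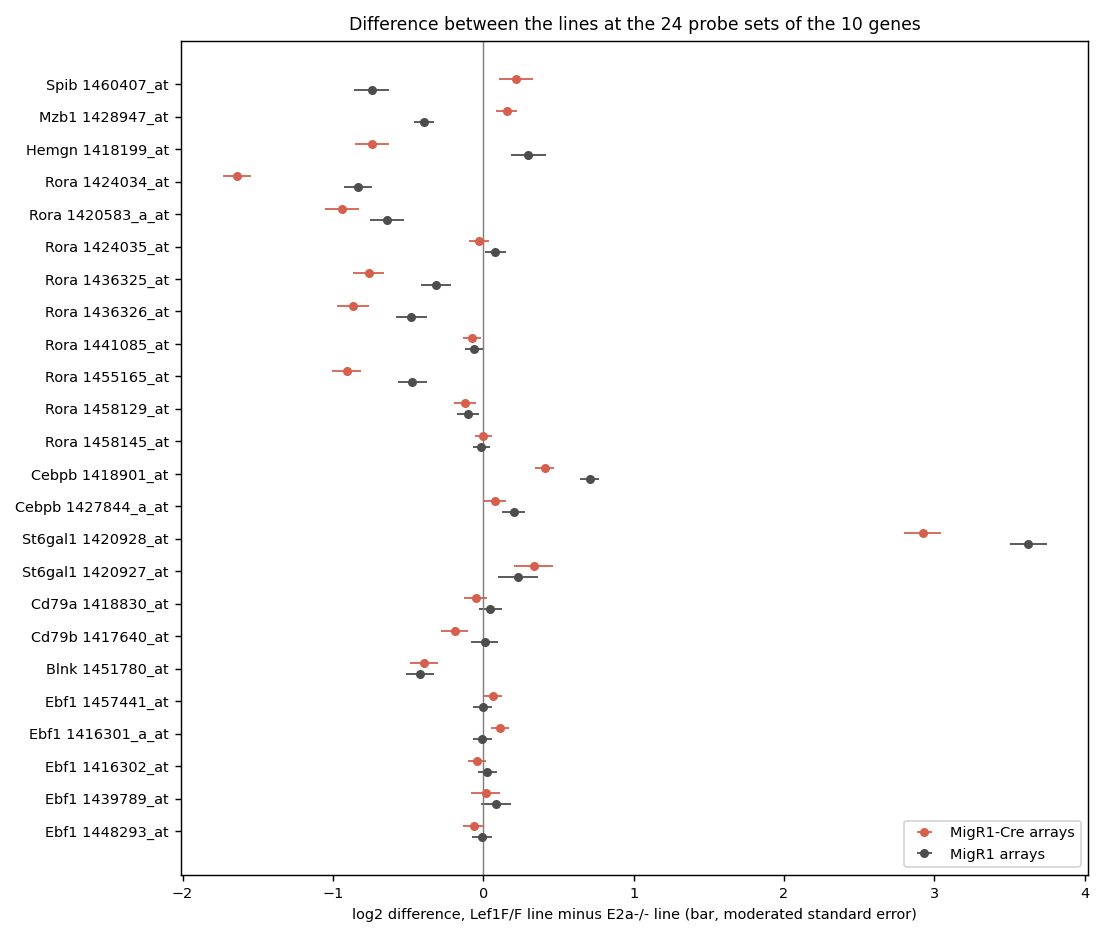
Difference between the Lef1F/F and E2a-/- lines (log2, bars are moderated standard errors, 2 arrays a group) at the 24 probe sets, in MigR1-Cre arrays and in MigR1 arrays. The brighter St6gal1 probe set stands at 2.92 and 3.63, and Spib, Mzb1 and Hemgn change sign between the vectors.

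As a description, since 7 of these 9 calls are of genes selected with the same Lef1F/F MigR1 arrays, among the 24 probe sets 2 were higher in the Lef1F/F line past the threshold in MigR1 arrays, where 6.06% of all probe sets were, and 7 were lower, where 4.67% were. The higher ones were Cebpb and St6gal1, and the lower ones Spib, Mzb1, Blnk and 4 Rora probe sets, which read the same gene. At the brightest probe set the 10 genes had a median of 0.00 in this comparison, against -0.01 over all named genes.

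A wider B cell program was then looked for in 127 genes of 8 lists, 142 genes having been listed. In the Lef1F/F line none of the 25 measured B cell identity genes passed the test with Cre, in either direction, each gene being read at its brightest probe set, and the median difference was 0.02. Among all named genes 0.0660% passed as higher and 0.220% as lower, so 0 of 25 says little by itself about a B cell program. The same holds for a count of 0 in each of the other lists. Pax5, the commitment factor of B cells, lay between 94.2 and 104 units on all 8 arrays. Ms4a1 (CD20) lay between 63.6 and 69.9 and the surrogate light chain gene Vpreb1 between 75.3 and 82.7, both under the array medians. Pou2af1, a coactivator at octamer sites in B cells, came nearest the threshold at 0.29 ± 0.09 (adjusted p = 0.707), with 298 and 327 units in Lef1F/F MigR1-Cre arrays, against 250 and 260 units in Lef1F/F MigR1 arrays. In all, 11 of the 25 genes were under the array median on all 8 arrays.

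Of 11 B cell receptor signaling partners, 1 passed. Syk, the kinase bound by the CD79 chains, read 129 and 128 in Lef1F/F MigR1-Cre arrays, against 344 and 321 in Lef1F/F MigR1 arrays, a fall of 1.37 ± 0.06 on the log2 scale (adjusted p = 0.000584). Across E2a-/- arrays Syk read 73.8 and 72.9 in MigR1-Cre arrays, against 80.8 and 86.6 in MigR1 arrays. Both Lef1F/F MigR1-Cre arrays lay below both Lef1F/F MigR1 arrays and above every E2a-/- array.

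None of 14 plasma cell and secretory genes passed in the Lef1F/F line, with Irf4 at -0.38 ± 0.11 (adjusted p = 0.586) and Jchain at 0.16 ± 0.06 (0.967). Prdm1, the factor that drives plasma cell formation, lay between 51.6 and 63.4 units on all 8 arrays. None of 13 plasmacytoid dendritic cell genes passed either, where Spib is also known, with Irf8 at 0.28 ± 0.08 (0.705) and Ly6d at 0.33 ± 0.10 (0.727). None of 13 erythroid genes passed beside Hemgn. The erythroid factor Gata1 lay between 91.4 and 118 units and the heme synthesis gene Alas2 between 56.2 and 67.7.

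None of 15 innate lymphoid and natural killer genes passed beside Rora, with Tox at 0.29 ± 0.06 (adjusted p = 0.237). None of 18 myeloid genes passed, and 13 of the 18 were under the array median on all 8 arrays. Cebpb did not pass either (adjusted p = 0.212 by limma), except once the Lef1F/F arrays were paired. None of 18 T lineage genes passed, with Cd2, an adhesion receptor of T cells, at -0.46 ± 0.07 (0.0816) and Ptcra, the pre-T cell receptor α chain, at 0.48 ± 0.09 (0.2). The 8 list medians lay between -0.01 and 0.08, against 0.00 over all named genes. The median of the 10 genes, -0.10, is a description, since 5 of them were selected on this comparison. Among E2a-/- arrays 0 genes of the 8 lists passed with Cre, as did 0% of all named genes.

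**Figure D4:**
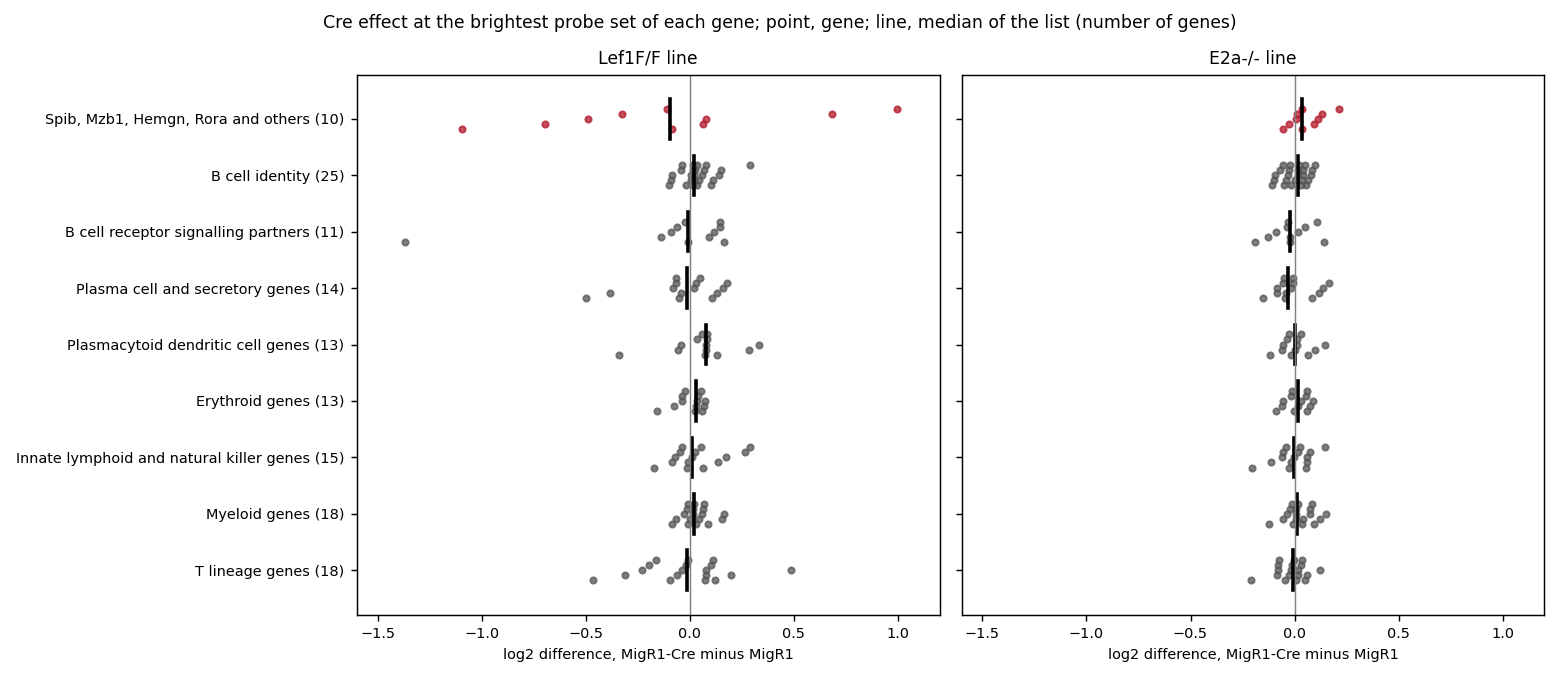
Difference between MigR1-Cre and MigR1 arrays (log2) for each gene at its brightest probe set, in the Lef1F/F line and in the E2a-/- line, for the 10 genes and for 8 lists, with the median of each list as a line. The 10 genes spread between -1.10 and 0.99 in the Lef1F/F line and between -0.06 and 0.21 in the E2a-/- line, and among the lists Syk stands apart at -1.37.

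Some genes of the lists also differed between the lines without Cre. In MigR1 arrays 8.71% of all named genes were higher in the Lef1F/F line and 5.88% were lower. The B cell identity list had 1 gene higher and 2 lower of 25, with Ighm, the μ heavy chain, at -2.20 ± 0.20 (adjusted p = 0.000244). Of 13 plasmacytoid dendritic cell genes 1 was higher and 5 lower. Among the lower ones Ly6d stood at -3.19 ± 0.10 (adjusted p = 8.5e-07) and Tcf4, the E protein of that cell type, at -2.91 ± 0.13 (5.64e-06). Tcf4 read 68.0 and 48.7 in Lef1F/F MigR1-Cre arrays and 53.6 and 57.1 in Lef1F/F MigR1 arrays, against 416 to 438 in E2a-/- arrays. As the Lef1F/F values were under the array medians, the size of that difference may be a lower bound. The receptor partners had 2 higher and 1 lower of 11, and plasma cell genes 2 and 1 of 14. Among the partners Syk stood at 1.99 ± 0.06 (adjusted p = 9.17e-07 by limma). Its E2a-/- values were under the array median, so this size may also be a lower bound. Erythroid genes had 0 higher and 2 lower of 13, innate lymphoid and natural killer genes 4 and 1 of 15, T lineage genes 6 and 2 of 18, and myeloid genes 0 of 18.

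Summed over the B cell identity list, intensity was 3481 to 3598 in Lef1F/F MigR1-Cre arrays and 3332 to 3540 in Lef1F/F MigR1 arrays, and 4440 to 5188 in E2a-/- MigR1-Cre arrays and 4544 to 4963 in E2a-/- MigR1 arrays. The groups of each line overlap. Summed plasmacytoid dendritic cell genes read 2287 to 2340 in Lef1F/F MigR1-Cre arrays, against 2205 to 2243 in Lef1F/F MigR1 arrays, and summed myeloid genes 1399 to 1413, against 1368 to 1384. Summed erythroid genes read 4669 to 4827 in Lef1F/F MigR1-Cre arrays, against 4946 to 5375 in Lef1F/F MigR1 arrays. Summed innate lymphoid and natural killer genes read 12725 to 13383 in Lef1F/F MigR1-Cre arrays, against 10994 to 11598 in Lef1F/F MigR1 arrays. These 4 sums did not overlap between the vectors in the Lef1F/F line and did in the E2a-/- line. Among all single probe sets 15.4% were higher and 13.7% lower without overlap in the Lef1F/F line, so such a gap is common. Bright genes weigh most in a sum. The list medians were 0.08 for plasmacytoid dendritic cell, 0.02 for myeloid, 0.03 for erythroid and 0.01 for innate lymphoid and natural killer genes. The erythroid sum and median thus went opposite ways, and nothing is read from these gaps. Summed receptor partners were lower with Cre in both lines. They read 4788 to 4900 in Lef1F/F MigR1-Cre arrays, against 4996 to 5020 in Lef1F/F MigR1 arrays. In the E2a-/- line they read 4158 to 4260 in MigR1-Cre arrays, against 4322 to 4357 in MigR1 arrays. The mean fall of Syk alone in the Lef1F/F line was larger than that of the sum. The median difference of the list was -0.01 in the Lef1F/F line and -0.02 in the E2a-/- line. Plasma cell genes summed to 15459 to 15735 in E2a-/- MigR1-Cre arrays, against 15938 to 16352 in E2a-/- MigR1 arrays, and T lineage genes to 51741 to 51847, against 52001 to 52263, and both sums overlapped in the Lef1F/F line. The part of these sums in the differences of Spib, Hemgn, Rora and Cebpb was not tested.

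The genes with the most similar pattern were found by the root mean square difference of mean-centered log2 values over the 8 arrays, among 18193 named genes. For Spib these were Dhrs3 (0.143), which encodes a retinal reductase, Mzb1 (0.173) and the receptor gene Erbb3 (0.188), where the Spib values themselves spread by 0.389. Dhrs3 had mean intensities of 239 in Lef1F/F MigR1-Cre arrays and 148 in Lef1F/F MigR1 arrays, and of 222 in E2a-/- MigR1-Cre arrays and 211 in E2a-/- MigR1 arrays. For Mzb1 they were Erbb3 (0.057), Dhrs3 (0.078) and the aquaporin gene Aqp11 (0.112). Dhrs3, Erbb3 and Aqp11 are in none of the 8 lists. That they were lowest in Lef1F/F MigR1 arrays, as Spib and Mzb1 were, follows from this search. Spib and Mzb1 were both selected on the same comparison, so their likeness to each other is not independent of that selection.

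For Hemgn the most similar genes were Mecom (0.162), which encodes a zinc finger factor of blood stem cells, Abcb1b (0.202) and Ccn4 (0.209). Mecom had mean intensities of 364 in Lef1F/F MigR1-Cre arrays and 627 in Lef1F/F MigR1 arrays, and of 490 in E2a-/- MigR1-Cre arrays and 492 in E2a-/- MigR1 arrays. For Rora they were Bace1 (0.157), Elovl6 (0.168), a fatty acid elongase gene, and Foxred2 (0.174), and for Cebpb they were Lztfl1 (0.044), Naa30 (0.045) and Ndrg2 (0.051). These likenesses rest on 8 arrays of 4 groups and carry no test.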

How the data were processed

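Trizol-extracted RNA, labelled from its 3' end, was hybridized to 8 Affymetrix mouse arrays. Normalization by the authors used RMA, in a version not given in the sources used here, which subtracts background and equalizes the distribution of intensity between arrays. The deposited table holds intensity per probe set on a linear scale, with no counts or depth, so the number of arrays limits precision. Since a change in total RNA would be removed by RMA, levels are relative to the array.

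Log2 was taken with no offset. limma 3.58.1 in R 4.3.3 fitted 4 group means to all 8 arrays (4 residual and 3.99 prior degrees of freedom), and two-sided p-values were adjusted within each contrast over all 45037 probe sets (Benjamini-Hochberg, threshold 0.05). The design had assumed log2 values in the table. Of the probe sets, 34945 had 1 symbol in the platform annotation, and genes were named from these alone. Of 142 list genes, 15 were not analysed here. The 10 genes, the lists and the tests were chosen with earlier results of these data known. The text names the 10 genes at every probe set, the list genes past the threshold or nearest to it with the defining markers of each list, and the 3 genes most like each of 5 genes. The fit was also run on simulated data with independent noise on each array. These lack the likeness of Lef1F/F arrays across vectors seen in the data, and nothing is read from them here. Alternatives were moderation with a trend, an intensity filter, fewer arrays or probe sets, gene means, repeated quantile normalization, array weights, a fold of 1.5, a threshold of 0.01, pairs of arrays as a block and leaving out each array.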

Additional observations from a re-analysis of the deposited data

Results flagged for a closer look

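Rora 1424034_at and St6gal1 1420928_at had Cre effects of opposite direction in the lines, with no overlap between MigR1-Cre and MigR1 arrays in either. For Rora the effect was -0.70 in the Lef1F/F line and 0.11 in the E2a-/- line, a difference of -0.81. For St6gal1 it was -0.49 in the Lef1F/F line and 0.21 in the E2a-/- line, a difference of -0.70. The difference was not tested for either gene, since the Lef1F/F comparison selected Rora and what St6gal1 was selected on is not recorded. Of all 45037 probe sets 4.32% showed this pattern, and of the 24 probe sets of the 10 genes 2 did.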

How the results depend on the processing

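Counts of probe sets past the threshold moved more than the values themselves. For the Cre effect in the Lef1F/F line, 75 of all probe sets and 4 of the 24 passed. This became 0 and 0 with only the 4 arrays compared, 4 and 0 against a fold of 1.5, 27 and 0 at a threshold of 0.01, and 345 and 7 with pairs of arrays as a block. With array weights 46 of all probe sets passed. Leaving out each array gave 20 to 33 and 0 to 2. For the Cre effect in the E2a-/- line, 0 passed, and 1 of all probe sets did with only the 4 arrays compared and 1 with the block. For the line difference in MigR1 arrays, 4829 and 9 passed, against 2980 of all genes by gene means, 658 and 1 against a fold of 1.5, 2583 of all at 0.01, and 9595 of all with the block. Leaving out each array gave 2267 to 5396 and 4 to 9.

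The block pairs Lef1F/F arrays that correlate best across vectors (0.9975 in both pairs, against 0.9943 and 0.9945 within a vector). This pairing comes from the data, as the labels hold no replicate numbers. With it Cebpb (adjusted p = 0.0299) and St6gal1 (0.00832) also passed for Cre in the Lef1F/F line, and Hemgn (0.0154) for the line difference. Cebpb had been selected on this setting. Of 18 settings for Cre in the Lef1F/F line, Rora lost its call in 15, Spib in 10, and Hemgn and Mzb1 in 9 each. Among these were 7 of the 8 single arrays left out for Rora (adjusted p 0.122 to 0.296) and for Spib (0.0613 to 0.145), and 6 of 8 for Hemgn (0.0605 to 0.121) and for Mzb1 (0.0668 to 0.093). By gene means Rora stood at -0.24 (adjusted p = 0.295).

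Of 177 values of the 10 genes for each comparison, 168 kept direction and side of the threshold for Cre in the E2a-/- line, 130 for Cre in the Lef1F/F line and 159 for the line difference. Changes of sign, all between values near 0 that passed in neither setting, numbered 9, 2 and 5. By gene means the E2a-/- Cre effect of Cebpb was 0.0178 and the line difference of Ebf1 0.0187, and after repeated quantile normalization the E2a-/- Cre effect of Ebf1 was -0.0005. Leaving out each array moved the E2a-/- Cre effect between -0.068 and 0.139 for Spib, -0.142 and 0.0298 for Hemgn, -0.0888 and 0.159 for Blnk, -0.0146 and 0.0405 for Cd79a, -0.0019 and 0.187 for Cd79b, and -0.0493 and 0.0645 for Ebf1. It moved the Lef1F/F Cre effect between -0.181 and 0.0117 for Cd79a and -0.016 and 0.146 for Blnk, and the line difference between -0.0795 and 0.0989 for Cd79b and -0.0615 and 0.0522 for Ebf1. Where an array is left out, the lone array of its group is assumed to vary like the other groups. The causes were not tested. With 2 arrays a group and dim signal for Cd79a, Cd79b and Ebf1, small changes could not be seen.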
